A study of Drosophila sechellia x Drosophila simulans with 8 samples.

Results

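The sex by tissue interaction asks, for each transcript, whether females differed from males by the same amount in oenocytes as in fat body. It was computed from all 8 libraries of 8 in the series, as the female minus male difference in oenocytes less the female minus male difference in fat body, on a log2 scale. A positive value means a higher female to male ratio in oenocytes than in fat body. The flies were F1 hybrids of D. sechellia and D. simulans, 10 days old, and the labels leave the mother's species unnamed. The groups were female oenocytes, male oenocytes, female fat body and male fat body, with 2 libraries each, from tissue of the dorsal abdominal segments collected at even intervals through a day of light and dark. The labels do not say how many flies entered a library or whether the duplicates came from separate flies, so p-values measure only the spread between these samples.

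Oenocytes are secretory cells under the abdominal cuticle that make the long-chain hydrocarbons which waterproof the fly and act as mating signals, and several of these differ between the sexes. The fat body lies beside them and serves as liver, fat store and source of secreted proteins, among them yolk proteins in females and immune peptides after infection. In Drosophila sex is set cell by cell through Sxl, tra and the transcription factors they control, so that each tissue can carry its own set of sex differences.

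Before the comparison the labels were checked against known genes. Sxl, the switch gene of female development, had 106 and 122 CPM (read counts relative to library size, with TMM scaling) in female oenocytes against 17.3 and 18.7 CPM in male oenocytes, and 71.1 and 69.5 CPM in female fat body against 20.7 and 24.1 CPM in male fat body. The oenocyte desaturase genes Desat2 and DesatF summed to 4907 to 6039 CPM in the oenocyte libraries and to 69.8 to 122 CPM in the fat body libraries. The yolk protein gene Yp2 was the only fat body marker tested, and it was abundant in female libraries of both tissues. Of the marker lists for other cells, the 4 of 20 testis and accessory gland markers tested (Acp63F, dj, janB and ocn) summed to 0.321 to 2.57 CPM per library and the muscle gene Mlc1 to 1.65 to 14.5 CPM. A wider list of 8 accessory gland and testis transcripts summed to 30.1 to 49.4 CPM in oenocyte libraries and 354 to 416 CPM in fat body libraries, nearly all of it Acp54A1, which had 353 and 415 CPM in female fat body against 356 and 410 CPM in male fat body. For the 4 ovary markers and the 1 hemocyte marker found by name, no tested transcript was paired with the gene. Whether their counts were low was not examined. No marker of neurons or trachea was found by name, so ovary, hemocytes, neurons and trachea were not checked. In the male oenocyte pair, estimated counts were nearly as close as sampling alone would make them, and the 2 libraries were added together as 1 sample (chi-square 1.08 per degree of freedom over genes with a single transcript, against 2.95 to 5.57 in the other groups). By other measures the pair differed by more than sampling noise, with 7.55 over all transcripts and 7.68 in aligned reads per gene, against at least 15.5 and 10.5 in the other groups. Estimated counts per library ran between 10732070 and 34474092.

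Of 14279 transcripts tested, 370 had a sex difference that differed between the tissues (2.59%; adjusted p under 0.05 by Benjamini and Hochberg's method, edgeR's quasi-likelihood test). The interaction was positive for 256 of them (1.79%) and negative for 114 (0.798%). By the same edgeR test the sex difference alone was called for 286 transcripts in oenocytes (2.0%), 1.63% higher and 0.371% lower in females, and for 875 in fat body (6.13%), 2.84% higher and 3.28% lower in females. Which direction held more calls in fat body turned with the scaling, with 406 higher and 469 lower here, 444 and 404 with DESeq2 size factors, and 441 and 334 without the 10 most abundant transcripts. The median interaction over all transcripts tested was 0.19, and without the 10 most abundant transcripts it was 0.06, with 161 positive and 127 negative calls. The 10 left out were 1 set, ranked by mean CPM over the samples, and their part in the balance of positive and negative calls was not tested beyond that fit. Ranked within each library instead, the 10 most abundant transcripts took 47.0% to 49.8% of the counts in oenocyte libraries. Their share was 44.7% and 44.9% in female fat body and 18.1% and 17.6% in male fat body, and the 10 can differ between libraries.

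The 370 transcripts were sorted by where the sex difference was itself called. For 101 it was called in oenocytes and not in fat body, and for 204 in fat body and not in oenocytes. For 14 it was called in both tissues in opposite directions, for 30 in both in the same direction at a different size, and for 21 in neither tissue alone. These names describe which calls passed, since a sex difference that misses the threshold in a tissue is not shown to be absent there. Of the 101, 75 had an absolute log2 sex difference under 0.5 in fat body. Of the 204, 171 had one under 0.5 in oenocytes. The libraries of the sexes did not overlap in the tissue with the call for 99 of the 101 and for all 204. In both tissues they were without overlap for all 14, all 30 and 20 of the 21. A call favours transcripts whose libraries do not overlap, so these counts add no support to the calls. Shares over all transcripts were not counted for the overlaps or for the values under 0.5.

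**Figure D1:**
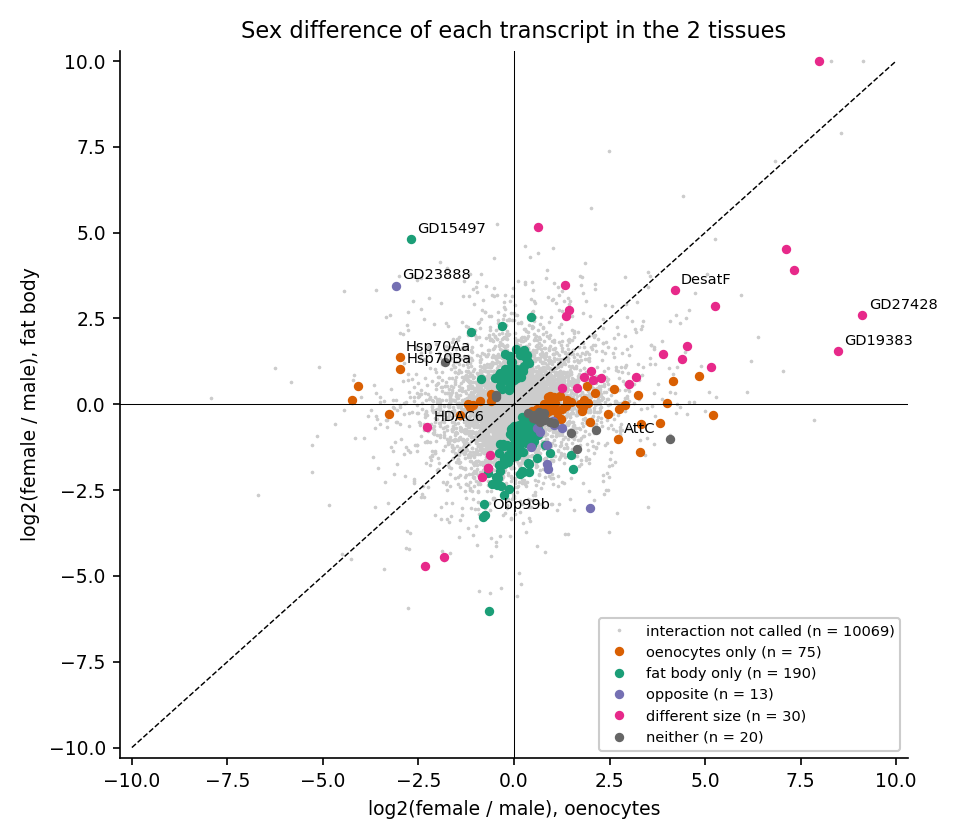
Log2 ratio of female to male expression in oenocytes (x axis) and in fat body (y axis) for each transcript tested, without those that had 3 counts or fewer in a group, and with values beyond 10 drawn at 10. Colours mark the classes of called interactions, and the dashed line marks equal sex differences in the tissues; GD15497 and GD23888 sit in the upper left, lower in females in oenocytes and higher in females in fat body by estimate.

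**Figure D2:**
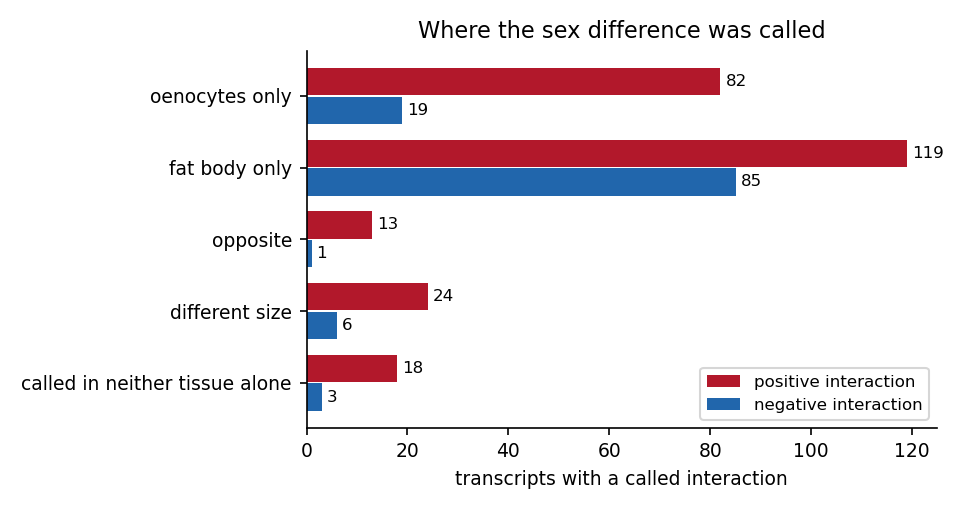
Number of transcripts with a called interaction in each class (rows), split into positive (red, upper bar) and negative (blue, lower bar) interactions. The fat body class holds 119 positive and 85 negative calls, a balance that turned to 69 and 98 without the 10 most abundant transcripts, and the oenocyte class 82 positive and 19 negative.

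Low counts touched part of these calls. In 42 of the 370 a group held 3 counts or fewer in all, so that the fitted size depends on the prior count, and 26 of these 42 were in the oenocyte class. Of the 42, 11 belonged to genes with 2 or 3 transcripts, and for 0 of those 11 genes was the interaction called when the transcripts of the gene were summed (edgeR). Calls of genes with a single transcript numbered 227. RNA from bulk tissue was measured, so fewer cells of a type and less RNA per cell cannot be told apart in any of these values.

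In the oenocyte class 82 of 101 transcripts were higher in females and 19 were lower. Of the 101, 77 reached at least 5 CPM in both tissues, a share that was not set against all transcripts. The members with a gene symbol were Hsp70Aa, Hsp70Ba, CAH1 and AttC. Apart from transcripts at 3 counts or fewer in a group, the absolute interaction had a median of 1.13 and reached 5.52.

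Hsp70Aa and Hsp70Ba, which encode heat-inducible chaperones, were lower in female than in male oenocytes. Hsp70Aa (3R) had 4.0 and 6.07 CPM in female oenocytes against 38.6 and 40.5 CPM in male oenocytes. In fat body it had 4.57 and 4.5 CPM in females against 2.17 and 1.35 CPM in males. The male oenocyte libraries were therefore high and the other 6 libraries low, with no overlap. The interaction was -4.37 ± 0.549 (log2, SE; edgeR adjusted p = 0.0377). Hsp70Ba (3R) had 7.70 and 7.23 CPM in female oenocytes, 55.1 and 59.9 CPM in male oenocytes, 8.91 and 9.32 CPM in female fat body and 3.49 and 5.39 CPM in male fat body. Its interaction was -4.00 ± 0.384 (edgeR adjusted p = 0.0275). The Hsp70 genes are near-identical copies, and the counting could split reads between them, so single copies are uncertain. Summed over the 4 copies tested, Hsp70 had 13.4 and 15.9 CPM in female oenocytes against 105 and 115 CPM in male oenocytes, and 15.2 and 15.2 CPM in female fat body against 7.05 and 8.24 CPM in male fat body. Male oenocytes were highest in the sum and in each of the 4 copies, while the order of the other 3 groups differed between copies.

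CAH1 (2L), a carbonic anhydrase gene, showed a sex difference in oenocytes beside near-equal levels in fat body. It had 268 and 272 CPM in female oenocytes and 617 and 619 CPM in male oenocytes. In fat body it had 61.9 and 64 CPM in females and 59.6 and 64.8 CPM in males. The sexes did not overlap in oenocytes and overlapped in fat body. The log2 sex difference was -1.21 ± 0.0773 in oenocytes (edgeR adjusted p = 0.00785) and 0.02 ± 0.0661 in fat body (edgeR adjusted p = 0.971), and the interaction was -1.22 ± 0.102 (edgeR adjusted p = 0.0241).

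AttC (2R) encodes an attacin, a peptide active against bacteria. Its level was 4.40 and 5.57 CPM in female oenocytes against 0.561 and 0.843 CPM in male oenocytes, and 10.4 and 9.0 CPM in female fat body against 18.6 and 20.7 CPM in male fat body. The groups did not overlap in either tissue, with females high in oenocytes and low in fat body. The interaction was 3.73 ± 0.398 (edgeR adjusted p = 0.030). The fat body difference of -1.02 ± 0.231 missed the threshold (edgeR adjusted p = 0.087). AttA and AttB are near-identical to each other and similar to AttC, and the 3 attacin transcripts summed to 5.0 and 6.5 CPM in female oenocytes, 0.641 and 0.923 CPM in male oenocytes, 10.5 and 9.59 CPM in female fat body and 24.9 and 27.9 CPM in male fat body.

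In the fat body class 119 of 204 transcripts were lower in females and 85 were higher. The split was 112 and 108 with DESeq2 size factors and 373 and 372 by the DESeq2 test, and it turned to 69 lower and 98 higher without the 10 most abundant transcripts. Of these 204, 191 reached at least 5 CPM in both tissues. The test favours transcripts with many counts, and the share over all transcripts was not counted. The median absolute interaction was 1.05 and the highest 7.51, again without transcripts at 3 counts or fewer in a group. All 6 members with a symbol, namely Adh, Obp99b, Obp99c, Trx-2, Est-6 and Gel, were lower in female than in male fat body.

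Adh (2L), the alcohol dehydrogenase that lets these flies use fermenting fruit, had 1706 and 1878 CPM in female oenocytes against 2317 and 2302 CPM in male oenocytes. In fat body it had 5168 and 5431 CPM in females against 18299 and 18440 CPM in males. Females were below males in both tissues without overlap, and the gap was wider in fat body. The log2 sex difference was -0.37 ± 0.0914 in oenocytes (edgeR adjusted p = 0.194) and -1.79 ± 0.0779 in fat body (edgeR adjusted p = 0.0019), and the interaction was 1.42 ± 0.123 (edgeR adjusted p = 0.0241). Adh and Adhr lie at the same locus, and how the counting divided reads between them was not tested.

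Obp99b and Obp99c encode odorant-binding proteins, small secreted carriers of hydrophobic molecules that are also made outside the antenna. Obp99b (3R) had 5.92 and 4.87 CPM in female oenocytes against 9.30 and 8.83 CPM in male oenocytes, and 9.92 and 12.4 CPM in female fat body against 102 and 106 CPM in male fat body. Male fat body stood far above the other 3 groups. The interaction was 2.47 ± 0.261 (edgeR adjusted p = 0.0298). Obp99c (3R) had 256 and 246 CPM in female oenocytes against 242 and 244 CPM in male oenocytes, and 1025 and 1094 CPM in female fat body against 2243 and 2346 CPM in male fat body. Its sex difference was 0.04 ± 0.0764 in oenocytes, and in fat body it was -1.12 ± 0.0629 (adjusted p = 0.00308, edgeR), with an interaction of 1.15 ± 0.10 (edgeR adjusted p = 0.0241). Obp99a, named for the same chromosome region, had 180 and 152 CPM in female oenocytes against 4.17 and 4.34 CPM in male oenocytes, and 1432 and 1509 CPM in female fat body against 51.6 and 52.7 CPM in male fat body. Obp99a was higher in females in both tissues, and its interaction of 0.45 ± 0.158 did not reach the threshold (edgeR adjusted p = 0.323).

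The interactions of Trx-2, Est-6 and Gel were smaller. Trx-2 (2L), a thioredoxin that keeps proteins reduced, had 257 and 242 CPM in female oenocytes, 303 and 304 CPM in male oenocytes, 48.7 and 46.2 CPM in female fat body and 105 and 105 CPM in male fat body. Est-6 (3L), a carboxylesterase known in D. melanogaster from the male ejaculatory duct, had 55.2 and 50.1 CPM in female oenocytes, 38.1 and 42.5 CPM in male oenocytes, 193 and 204 CPM in female fat body and 318 and 309 CPM in male fat body. Females were thus above males for Est-6 in oenocytes and below them in fat body, though the oenocyte difference of 0.35 ± 0.0921 missed the threshold (edgeR adjusted p = 0.229). Gel (3R) encodes gelsolin, which cuts and caps actin filaments. The Gel transcript called had 363 and 367 CPM in female oenocytes, 352 and 344 CPM in male oenocytes, 2202 and 2252 CPM in female fat body and 3516 and 3445 CPM in male fat body. The interactions were 0.86 ± 0.101 for Trx-2, 1.01 ± 0.119 for Est-6 and 0.71 ± 0.0819 for Gel (edgeR adjusted p = 0.0324 for each). The fat body libraries of the sexes did not overlap for these 3, as for all 204 transcripts of the class.

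The most negative interaction among transcripts that met the naming rule was that of the X-linked GD15497, a gene the files give no name for. It had 75.6 and 115 CPM in female fat body against 2.24 and 4.44 CPM in male fat body, a log2 difference of 4.80 ± 0.424 (edgeR adjusted p = 0.00823). In oenocytes the order was turned round, with 1.78 and 1.82 CPM in females against 11.4 and 11.9 CPM in males, although that difference of -2.70 ± 0.442 did not reach the threshold (edgeR adjusted p = 0.0719). The sexes did not overlap in either tissue. The interaction was -7.51 ± 0.602 (edgeR adjusted p = 0.0241).

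Of the 14 transcripts with opposite sex differences that were each past the threshold, 13 were higher in females in oenocytes and lower in females in fat body. Without the 10 most abundant transcripts the class held 6, of which 4 had that direction and 2 the other. The exception in the class of 14 was GD23888 (2L), which had 3.22 and 2.35 CPM in female oenocytes against 24.4 and 23.1 CPM in male oenocytes, and 124 and 132 CPM in female fat body against 12.0 and 11.2 CPM in male fat body. Each group was clear of the others. The sex difference was -3.09 ± 0.191 in oenocytes (edgeR adjusted p = 0.00739) and 3.46 ± 0.172 in fat body (edgeR adjusted p = 0.00234), which gave an interaction of -6.55 ± 0.255 (edgeR adjusted p = 0.00707). Whether or not each difference passed the threshold, 227 of the 370 called transcripts had sex differences of opposite sign in the tissues. Choosing transcripts by the difference between the tissues favours opposite signs, and the share over all transcripts was not counted.

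Among the 30 transcripts with a sex difference of the same direction and a different size, 23 were higher in females in both tissues and 7 were lower. The difference was larger in oenocytes for 19. The median absolute interaction was 2.26. Of the 28 paired with a gene, 13 were X-linked, beside 17 of 72 in the oenocyte class, 33 of 177 in the fat body class, 5 of 11 with opposite differences and 2 of 14 called in neither tissue. Of all paired transcripts tested 1449 of 8944 were X-linked, and the classes were not tested against each other.

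DesatF (3L), the desaturase behind female hydrocarbons with a pair of double bonds in D. sechellia and D. melanogaster, belonged here. It had 2772 and 2749 CPM in female oenocytes against 150 and 147 CPM in male oenocytes, and 36.1 and 33.9 CPM in female fat body against 3.23 and 3.67 CPM in male fat body. Females were above males in both tissues without overlap. The interaction was 0.88 ± 0.124 (edgeR adjusted p = 0.0446). Fat body levels of DesatF were 1.27% of those in oenocytes in females and 2.32% in males, and those of Desat2 were 1.65% and 1.99%. The part of oenocyte RNA in the fat body values of DesatF was not tested.

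HDAC6 (X), a deacetylase that acts on tubulin, was lower in females in both tissues. It had 106 and 94.7 CPM in female oenocytes against 485 and 484 CPM in male oenocytes, and 511 and 499 CPM in female fat body against 852 and 746 CPM in male fat body. The gap was wider in oenocytes, with a sex difference of -2.28 ± 0.113 (edgeR adjusted p = 0.00505) against -0.66 ± 0.096 in fat body (edgeR adjusted p = 0.0274). The fat body call was lost in 9 of 18 alternatives, with -0.58 (edgeR adjusted p = 0.0646) without the 10 most abundant transcripts and -0.53 (edgeR adjusted p = 0.0877) in the D. simulans copy, while aligned reads gave -1.42 (edgeR adjusted p = 0.187). As HDAC6 is X-linked and males carry 1 X, the value in a single copy is no plain test of the sex difference. The interaction was -1.62 ± 0.149 (edgeR adjusted p = 0.0268).

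The largest positive interactions under the naming rule were those of GD19383 (3R) and GD27428 (X), which carry no name in the files. GD19383 had 39.0 and 41.5 CPM in female oenocytes against 0.0801 and 0.12 CPM in male oenocytes, and 12.9 and 17.0 CPM in female fat body against 5.66 and 4.62 CPM in male fat body. Its interaction was 6.94 ± 0.425 (edgeR adjusted p = 0.0128). GD27428 had 72.1 and 83.1 CPM in female oenocytes against 0 and 0.201 CPM in male oenocytes, and 3.41 and 2.36 CPM in female fat body against 0.263 and 0.608 CPM in male fat body. Both genes were nearly silent in male oenocytes, with 4 counts in all for GD19383 and 5 for GD27428. The fitted size of each interaction is therefore uncertain. Their sex differences in fat body were 1.54 ± 0.21 for GD19383 (edgeR adjusted p = 0.0234) and 2.59 ± 0.401 for GD27428 (edgeR adjusted p = 0.0328). Each fat body call was lost with aligned reads, and that of GD27428 also under the replicate block and in the D. simulans copy. The interaction of GD27428, 6.52 ± 0.717 (edgeR adjusted p = 0.0303), rests on 5 counts in male oenocytes. It was 11.1 without male oenocyte replicate 2, which leaves that group at 0 counts, so that this fitted size depends on the prior count. It was -0.06 when only the D. simulans copy of the transcript was counted (edgeR adjusted p = 0.935). GD27428 is X-linked and males carry 1 X, so its values in a single copy also depend on which copy the males hold. That part was not tested.

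Of the 21 transcripts called for the interaction and in neither tissue alone, 1 had a symbol. This was nec (2R), a serpin that restrains the Toll pathway in D. melanogaster. It had 66.2 and 67.7 CPM in female oenocytes against 44.8 and 46.0 CPM in male oenocytes, and 454 and 497 CPM in female fat body against 584 and 599 CPM in male fat body. Females were higher in oenocytes and lower in fat body, without overlap. The interaction was 0.86 ± 0.107 (edgeR adjusted p = 0.0366), beside sex differences of 0.54 ± 0.0838 in oenocytes (edgeR adjusted p = 0.0617) and -0.31 ± 0.0664 in fat body (edgeR adjusted p = 0.0741).

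**Figure D3:**
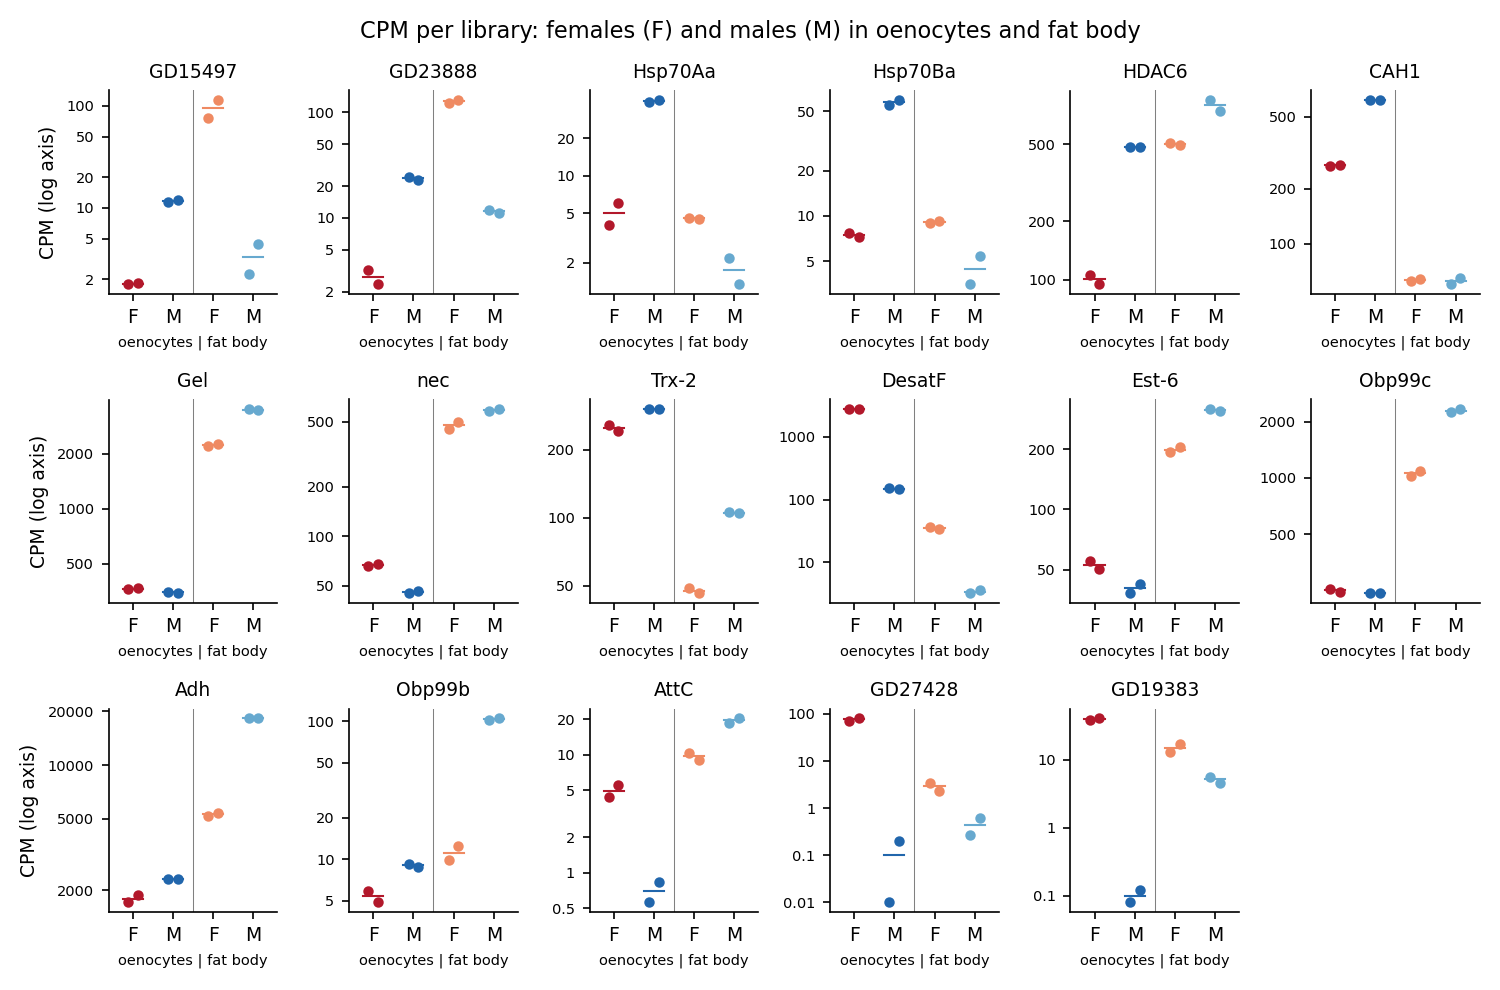
CPM of each library (points, log axis with its own range in each panel) and group means (short lines) for the 17 named transcripts, females (F) left of males (M), oenocytes left of fat body. The count of 0 for GD27428 is drawn at 0.01; Hsp70Aa and Hsp70Ba are high in male oenocytes, while Obp99b and Adh are high in male fat body.

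The members with a symbol made up 13 of 281 such transcripts tested (4.63%). Gene lists by function, chosen with earlier results of these data known, give them a setting, and each list count is read against the 1.79% positive and 0.798% negative calls over all transcripts. Of 13 odorant-binding protein transcripts, 2 had a positive interaction and 0 a negative one, with a median of 0.71 against 0.19 over all transcripts. In fat body 3 of the 13 were lower in females (Obp18a, Obp99b and Obp99c) and 1 was higher (Obp99a), beside 3.28% lower and 2.84% higher over all transcripts. In oenocytes 1 of the 13 was higher (Obp99a), beside 1.63% over all transcripts. Obp18a had 5.14 and 4.41 CPM in female oenocytes against 6.41 and 5.30 CPM in male oenocytes, and 36.8 and 36.2 CPM in female fat body against 70.3 and 72.3 CPM in male fat body. Its interaction of 0.71 ± 0.175 did not reach the threshold (edgeR adjusted p = 0.164).

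Among 17 transcripts of antioxidant and detoxifying enzymes, 10 were lower in female fat body and 0 higher, where 3.28% of all transcripts were called lower there. In oenocytes 1 was lower in females (Jheh1) and 0 higher, beside 0.371% lower and 1.63% higher over all transcripts. The interaction was called for Trx-2 and Est-6, with a median of 0.47 over the list. Without the 10 most abundant transcripts 7 of the 17 were lower in female fat body, beside 334 of 14031 over all transcripts. In that fit 0 of the 17 had a called interaction, beside 288 of the 14031 (edgeR, where 1753 of all transcripts had an unadjusted p under 0.05). Jheh1, a juvenile hormone epoxide hydrolase, was lower in both female tissues. Its log2 sex difference was -0.97 ± 0.0786 in oenocytes (adjusted p = 0.0133, edgeR) and -1.36 ± 0.0676 in fat body (adjusted p = 0.00234, edgeR). Its interaction of 0.39 ± 0.105 missed the threshold (edgeR adjusted p = 0.199). ERp60, a protein disulfide isomerase, lay just outside with an interaction of 0.52 ± 0.0777 (edgeR adjusted p = 0.0512).

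Of 8 transcripts of heat shock proteins and their regulators, the 2 called interactions were those of Hsp70Aa and Hsp70Ba, both negative. The chaperone genes Hsc70-4 and Hsp83, which are active without heat, had interactions of positive sign that missed the threshold. Hsc70-4 had 4323 and 4460 CPM in female oenocytes against 3680 and 3658 CPM in male oenocytes, and 3602 and 3587 CPM in female fat body against 4725 and 4337 CPM in male fat body, an interaction of 0.59 ± 0.108 (edgeR adjusted p = 0.0796). Hsp83 had an interaction of 0.34 ± 0.087 (edgeR adjusted p = 0.169).

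The list named for alcohol and carbohydrate metabolism, with 18 transcripts, also takes in carbonic anhydrase genes. Adh was its positive call, and its negative call was CAH1, a carbonic anhydrase gene rather than one of alcohol or carbohydrate metabolism. In fat body 4 of the 18 were higher in females and 3 lower, beside 2.84% and 3.28% over all transcripts. Without the 10 most abundant transcripts 4 of 16 were higher and 1 lower, beside 441 higher and 334 lower of 14031 over all transcripts. The antimicrobial peptides were scarce. AttC was the 1 called interaction of 10 transcripts, 6 of which had a group at 3 counts or fewer, and the list median was 2.75, or 2.35 with such groups set to 3 counts (over all transcripts 0.15 on that scale). Of 20 transcripts of immune recognition and signalling 1 was called, nec. In fat body 1 of the 20 was higher in females and 2 lower, beside 2.84% and 3.28% over all transcripts. Rel, a transcription factor of the Imd pathway, was higher in female fat body by 0.35 ± 0.0574 (edgeR adjusted p = 0.0381). PGRP-SA and PGRP-SB1, which recognise or bind bacterial peptidoglycan, were lower in female fat body, with log2 sex differences of -1.31 ± 0.14 for PGRP-SA (edgeR adjusted p = 0.0129) and -1.81 ± 0.161 for PGRP-SB1 (edgeR adjusted p = 0.00831). The interaction of PGRP-SA was 1.24 ± 0.225 and that of PGRP-SB1 was 1.53 ± 0.256, neither of them called (adjusted p = 0.0759 and 0.0643, edgeR).

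**Figure D4:**
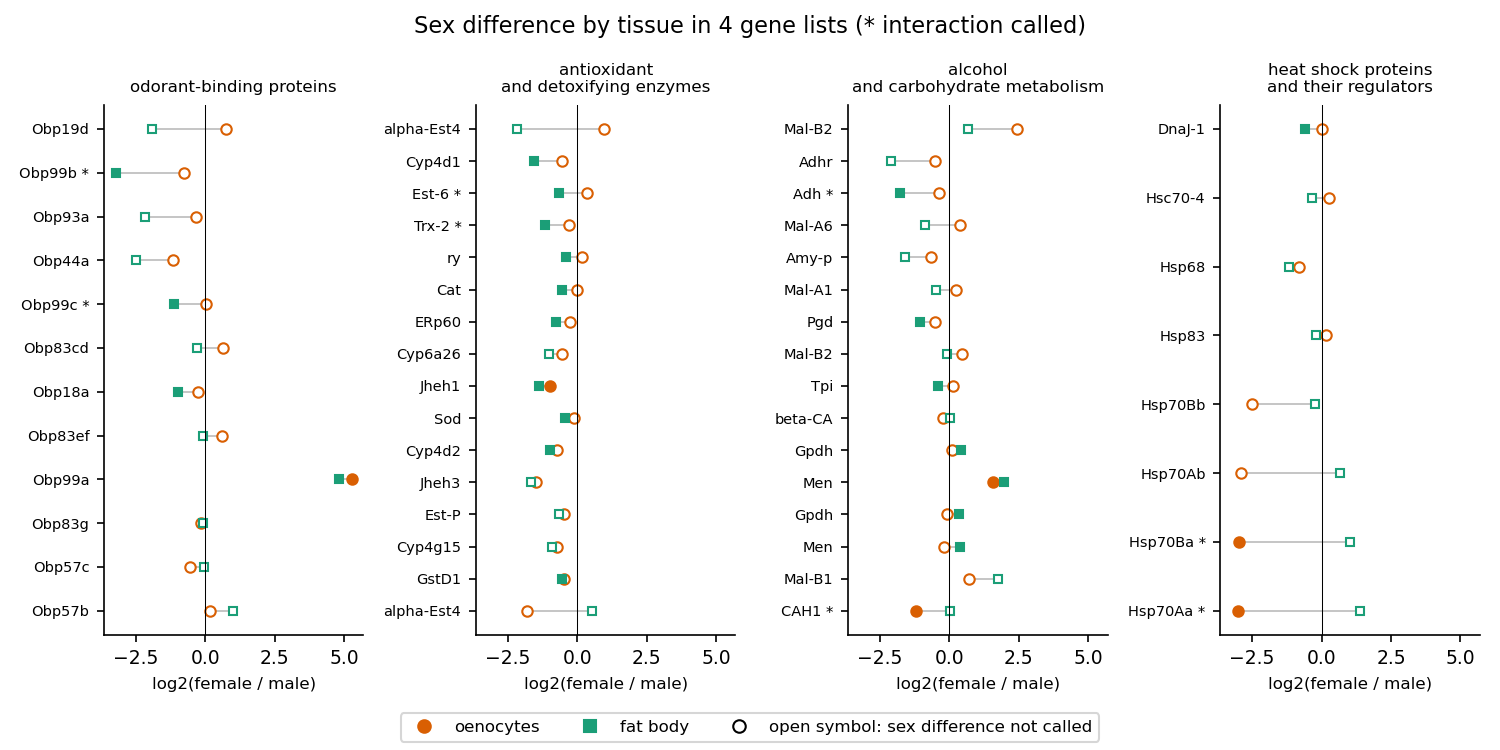
Log2 ratio of female to male expression in oenocytes (orange circles) and fat body (green squares) for the transcripts of 4 gene lists that had over 3 counts in each group, filled where the sex difference was called. An asterisk marks a called interaction, and a gene named more than once has several transcripts; Obp99a has close symbols in both tissues, whereas Obp99b and the Hsp70 copies have wide gaps.

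Several further genes with known roles had no called interaction. Yp2 had 39773 and 41776 CPM in female oenocytes against 63.5 and 76.5 CPM in male oenocytes, and 114741 and 121772 CPM in female fat body against 45.0 and 79.4 CPM in male fat body. Its interaction of -1.75 ± 0.421 did not reach the threshold (edgeR adjusted p = 0.149). Yolk proteins are products of the fat body, and the part of fat body RNA in the oenocyte values of Yp2 or of any other gene was not tested. Desat2 (the more abundant of its 2 transcripts) had 2185 and 2156 CPM in female oenocytes against 5869 and 5888 CPM in male oenocytes, and 33.6 and 37.9 CPM in female fat body against 116 and 118 CPM in male fat body, with an interaction of 0.26 ± 0.116 (edgeR adjusted p = 0.462). Sxl had an interaction of 0.98 ± 0.184 (edgeR adjusted p = 0.0829). The secreted growth factor gene Idgf1 had a log2 sex difference of 1.05 ± 0.0964 in oenocytes (adjusted p = 0.0185, edgeR) and 0.81 ± 0.0747 in fat body (adjusted p = 0.00892, edgeR), and an interaction of 0.24 ± 0.119 (edgeR adjusted p = 0.53). ImpL2, which encodes a secreted insulin-binding protein, had 500 and 556 CPM in female oenocytes against 277 and 272 CPM in male oenocytes, and 31.6 and 38.4 CPM in female fat body against 42.5 and 41.4 CPM in male fat body. That transcript had estimates of opposite sign, 0.94 in oenocytes and -0.26 in fat body, both short of the threshold (edgeR adjusted p = 0.0607 and 0.346). It lay just outside the threshold, with an interaction of 1.20 ± 0.183 (edgeR adjusted p = 0.0521).

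Among the 8944 transcripts paired with a gene, 302 had a called interaction (3.38%). On the X 70 of 1449 were called (4.83%), against 3.3% on 2L, 2.97% on 2R, 2.7% on 3L and 3.44% on 3R, with 0 of 50 on chromosome 4. The median sex difference of X-linked transcripts was 0.14 in oenocytes and -0.01 in fat body, and the medians of the 4 large autosome arms lay between -0.04 and -0.01 in oenocytes and between -0.15 and -0.14 in fat body. The medians were higher on the X than on those arms in each tissue, and the difference between X and autosomes was not tested.

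**Figure D5:**
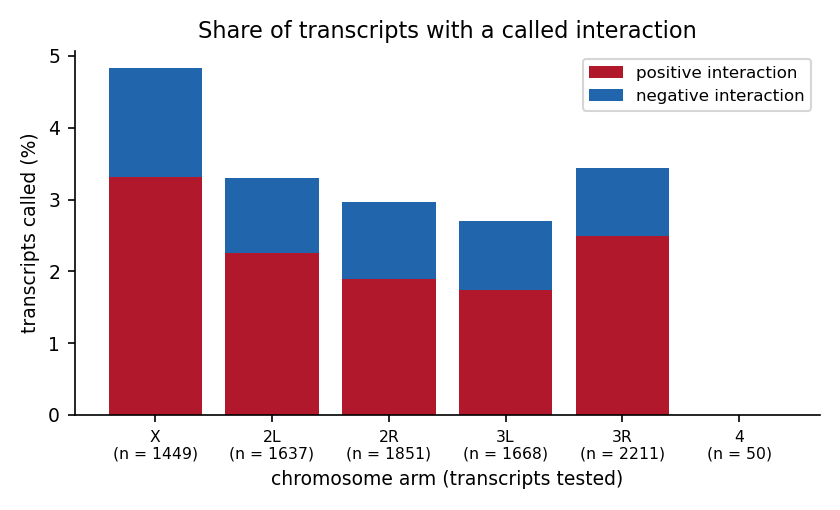
Percentage of tested transcripts with a called interaction on each chromosome arm, split into positive (red) and negative (blue) interactions, for transcripts paired with a gene. The bar of the X reaches 4.83% and the other large arms lie between 2.7% and 3.44%.

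The number of calls depended on the libraries of the groups with 2 samples. Leaving out either library of female oenocytes, of female fat body or of male fat body gave 1 to 31 interaction calls (edgeR), while leaving out either male oenocyte library gave 364 and 386. Over the 370 transcripts the estimate without 1 library had a median of 99.4% to 100% of the value from all libraries, with 3 changes of sign, all without male oenocyte replicate 2. Of the 17 named interactions, GD23888 alone kept its call without female oenocyte replicate 1, female oenocyte replicate 2 or male fat body replicate 1, and 0 kept it without female fat body replicate 1, female fat body replicate 2 or male fat body replicate 2. Aligned reads per gene, which were 2275755 to 4642417 per library, gave 6 calls, and GD15497, GD23888 and Hsp70Aa kept theirs. With aligned reads the interaction was -0.80 for HDAC6, 0.45 for Trx-2, 0.12 for DesatF, 0.53 for Est-6 and 1.16 for Gel, none of them past the threshold (edgeR adjusted p = 0.726, 0.896, 0.977, 0.874 and 0.751).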

How the data were processed

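RNA of 8 libraries was quantified by the authors, who used kallisto 0.44.0 and STAR 2.5.1b per the submitters' processing notes. The genome build and the settings are not given in the sources used here. The deposited estimated counts of kallisto cover 24115 transcripts, each as a D. simulans and a D. sechellia copy, and the copies were summed and rounded. The deposited allele tables hold whole-number read counts in 4 classes per gene, per the file headers; their sum gave the aligned reads per gene. The deposited TPM tables of the authors served to name transcripts, where a gene and 1 transcript, or the sum of 2 or 3, had equal TPM in all 8 libraries. This paired 10388 transcripts, with 4390 of 4391 old identifiers of single transcripts at a common offset from the gene number. Of 14176 genes, 427 have a symbol.

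Counts were tested with edgeR 4.0.16 in R 4.3.3 (TMM, filterByExpr, glmQLFit, glmQLFTest, 1 term per group, 3 residual degrees of freedom). The 2 male oenocyte libraries were summed as 1 sample, which is assumed to vary like the other groups. Each standard error is the size of the log2 difference divided by the root of edgeR's F, so it restates the test. The scripts were run on simulated counts, where most of the smaller interactions put in were missed, so power at 2 libraries per group is low. The settings of that simulation were changed after a first outcome was seen. DESeq2 1.42.0 was an alternative, beside others listed in the closing section.

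The comparison, the gene lists and the naming rule were chosen with earlier results of these data known. Named were all called transcripts with a gene symbol, and the 2 of highest absolute interaction in each direction among those with at least 10 CPM in a group and no overlap where the sex difference was called, which it had to be in at least 1 tissue. Transcripts with 3 counts or fewer in a group were left out of the naming by size, a condition added after the values were seen, because their fitted size depends on the prior count. A floor of 3 counts over a group covers counting error only.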

Additional observations from a re-analysis of the deposited data

Results flagged for a closer look

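These results are set out because the effect of sex was not the same in oenocytes as in fat body, which held for 370 transcripts by edgeR's test of the interaction. In the order of their log2 interaction the named transcripts were GD15497 (-7.51), GD23888 (-6.55), Hsp70Aa (-4.37), Hsp70Ba (-4.00), HDAC6 (-1.62), CAH1 (-1.22), Gel (0.71), nec (0.86), Trx-2 (0.86), DesatF (0.88), Est-6 (1.01), Obp99c (1.15), Adh (1.42), Obp99b (2.47), AttC (3.73), GD27428 (6.52) and GD19383 (6.94). With 2 libraries per group no library could be tested as standing apart from its group.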

How the results depend on the processing

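The interaction called 370 transcripts in the fit reported, with sex differences of 286 in oenocytes and 875 in fat body. Other tools and sample sets moved these counts. DESeq2 gave 1591 interaction calls (1357 and 2374 for the sex differences), with 406 in oenocytes only, 745 in fat body only, 183 opposite, 178 of different size and 79 in neither. All 8 libraries apart, without a block, gave 979 (835 and 1471), with 231, 491, 109, 105 and 43 in those classes. The replicate numbers did not pair the libraries: differences between same-numbered libraries correlated at -0.04 to 0.11 across groups. With the replicate number as a block over 8 libraries there were 835 interaction calls and 647 sex differences in oenocytes, with 191, 425, 79, 90 and 50 in the classes. Aligned reads per gene gave 6 (25 and 81), with 3, 2, 1, 0 and 0 in the classes, by edgeR, where 621 genes had an unadjusted p under 0.05; the cause was not tested. D. simulans copies alone gave 183, with 57 in oenocytes only, 93 in fat body only, 17 of different size and 5 in neither. D. sechellia copies alone gave 478 sex differences in oenocytes, 54 interactions of different size and 6 in neither. Opposite calls numbered 9 without a filter on low counts, 22 with transcripts summed per gene and 6 (4 positive, 2 negative, against 13 and 1) without the 10 most abundant transcripts, where neither held 12. The gene sums and the single copies were chosen after seeing the data. Leaving out 1 library gave 1 to 386 interaction calls, 44 to 303 and 125 to 881 sex differences in oenocytes and fat body, 0 to 109 in oenocytes only, 1 to 204 in fat body only, 0 to 16 opposite, 0 to 31 of different size and 0 to 26 in neither; dropping a library of a group with 2 samples also removes a residual degree of freedom. Of the 370, 352 were shared in direction with DESeq2 size factors, 370 with DESeq2, 302 without a filter, 265 without the 10 most abundant transcripts and 352 under the block. The interaction of GD27428 reversed to -0.057 with D. simulans copies alone. This gene is X-linked and males carry 1 X, so a single copy is not comparable between the sexes. DESeq2 and DESeq2 size factors each kept the calls of all 17 named interactions. No filter kept 16, losing Gel; leaving out the 10 most abundant transcripts kept 12 of 16, losing Gel, Trx-2, DesatF and Est-6; D. simulans copies alone kept 9 of 17, losing CAH1, Gel, Trx-2, DesatF, Est-6, Obp99c, Obp99b and GD27428. For CAH1, DesatF and Est-6 at least 83.0% of the reads assigned to an allele were of the alternative allele in each group. A single copy of these genes can therefore hold few reads. Depth limits the transcripts at 3 counts or fewer in a group, whose fitted size is no bound.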

Other observations

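The hybrids carry a D. sechellia and a D. simulans copy of each autosomal gene, so an autosomal interaction can be read in either copy. Males carry 1 X, so the sex difference of an X-linked gene cannot be read in both copies. Of the 302 called transcripts paired with a gene, 70 were X-linked, and the counts below include X-linked transcripts. Of the 370 called transcripts 368 were tested in both copies, and 351 had an interaction of the sign found for the sum in both. By edgeR's test 148 were called in the D. simulans copy and 249 in the D. sechellia copy. The copies share reads wherever their sequences are identical, so this is no independent repeat. For Hsp70Ba the value was -4.05 in the D. simulans copy and -4.01 in the D. sechellia copy, and for GD19383 6.86 and 6.89. CAH1 had -1.50 in the D. simulans copy (edgeR adjusted p = 0.612), with sex differences of -0.60 in oenocytes and 0.90 in fat body, and -1.20 in the D. sechellia copy (edgeR adjusted p = 0.032). Obp99b had 2.24 (edgeR adjusted p = 0.40) and 2.49 (edgeR adjusted p = 0.0278) in those copies. For Est-6 it was 0.40 in the D. simulans copy (edgeR adjusted p = 0.725) and 1.09 in the D. sechellia copy (edgeR adjusted p = 0.0394). Of the reads assigned to an allele, the alternative allele took 97.8% to 98.8% per group for CAH1 and 83.0% to 94.7% for Est-6. A copy of each thus held the smaller part of the reads, and differences between the copies were not tested. GD27428, which is X-linked, had -0.06 in the D. simulans copy and 7.89 in the D. sechellia copy.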
